A study of Homo sapiens with 8 samples.

Results

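The serpins are a family of protein-coding genes whose products share one fold, and in most of them that fold traps a protease and inactivates it. The members described here are all genes with a probe set named to them alone whose symbol in the array annotation starts with SERPIN, without pseudogenes. By that rule 30 members were found among the 18417 genes measured, each read by 1 probe set. They fall into clade A (10 genes), clade B (11), clades F and I (2 each) and clades C, D, E, G and H (1 each). The transcribed pseudogenes SERPINA2, SERPINA13P and SERPINB9P1, 3 in all, were left out. RefSeq lists 34 protein-coding serpin genes (GRCh38.p14), and the 4 without a probe set named to them alone were not analysed here. The rule would take the highest mean over the 8 arrays to choose among several probe sets of a gene, but no member had more than 1. The genes were thus chosen by their symbols, but the family itself was picked from results on these arrays, with the COH29 values of SERPINI1 in view, so those values are given as a description, with no test.

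RNA came from HCC1937, a breast cancer cell line with a truncated BRCA1, and from HCC1937+BRCA1, its derivative that carries exogenous wild-type BRCA1. Each line was measured without drug (control) and after COH29, an inhibitor of ribonucleotide reductase, at 10 µM for 24 h. The 4 groups held 2 Affymetrix arrays each, and the values are log2 intensities after RMA, an averaging of the probes of a gene on arrays scaled alike. The labels give no hours and no vehicle for the control arrays, so vehicle or culture time cannot be told apart from the drug. They do not say how the exogenous gene was brought in, nor whether HCC1937+BRCA1 is 1 clone, so the added BRCA1 cannot be told apart from any other difference between the lines. Nor do they state that the 2 arrays within a group stem from different cultures. The p-values therefore rest on the spread among these samples alone, and that spread may be technical.

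A serpin offers a protease a bait, the reactive centre loop. When the protease cuts the loop, the serpin snaps into another shape and drags the bound protease with it, so that both are used up. Clade A members are mostly secreted proteins of blood plasma, made above all by the liver, while clade B members lack a classical signal peptide and act mainly inside cells, where several guard epithelial and immune cells against their own granule or lysosomal proteases. A few serpins do not inhibit proteases: SERPINH1 (HSP47) is a chaperone of collagen, SERPINF1 (PEDF) a secreted factor that restrains blood vessel growth, and SERPINA6 and SERPINA7 carry cortisol and thyroid hormone.

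All 8 arrays were more similar to the other array of their own group than to any other array, with r between 0.996 and 0.997 within groups across genes. BRCA1 itself read 10.45 and 10.64 on the HCC1937 control arrays and 10.50 and 10.43 on those of HCC1937+BRCA1, so its probe set does not tell the lines apart and does not check the labels. The list of breast epithelial markers, which also holds the mesenchymal gene VIM, had a median percentile of 75.3 to 88.5 among all genes over the 4 groups. Not all of its 15 measured genes were high, since the lowest mean in a group was 4.84 to 5.14. Of this list, the keratin genes KRT7, KRT8 and KRT18 and the adhesion genes EPCAM and CDH1 all lay at or above percentile 97.7. Liver cell markers had a median percentile of at most 13.2, fibroblast markers of 17.7 to 26.3, and leukocyte markers of 19.1 to 20.9, with the leukocyte surface gene PTPRC at percentile 3.8 or lower. Of the 9 leukocyte markers measured, 0 were higher and 2 lower in HCC1937+BRCA1 without drug, where all genes gave 16.4% and 14.8%. The summed linear level of all 9 was 3568 in HCC1937 control and 2063 in HCC1937+BRCA1 control. Among the 2 was CD14, a gene of the monocyte surface, whose group means were 10.61 and 6.84. Of the 6 endothelial markers, COH29 raised 0 and lowered 2 in HCC1937, where all genes gave 10.2% and 12.5%. In HCC1937+BRCA1 it raised 1 and lowered 2, where all genes gave 13.6% and 20.1%. PECAM1 and CDH5 fell in both lines, and the summed linear level of the 6 went from 1431 to 742 in HCC1937 and from 807 to 625 in HCC1937+BRCA1. Of the 15 genes on the epithelial list, 2 were higher and 4 lower in HCC1937+BRCA1 without drug, where all genes gave 16.4% and 14.8%. The control means in HCC1937 and HCC1937+BRCA1 were 7.07 and 10.63 for the mesenchymal filament gene VIM and 10.98 and 9.28 for the basal keratin gene KRT5. The part of other cells, or of these shifts, in the serpin results was not tested, and in bulk RNA fewer cells of a type and less RNA per cell cannot be told apart.

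Most serpin probe sets gave little signal in these cells. Over the 8 arrays, 19 members lay below the 30th percentile of all genes, 7 between the 30th and the 70th, and 4 at or above the 70th. The 4 were SERPINA3, SERPINB1, SERPINB5 and SERPINH1. Percentiles place a signal on the array only roughly, since each probe set binds with its own strength, and levels of different serpins are therefore not set against each other. Among the clade A members, SERPINA4, SERPINA6, SERPINA7, SERPINA9, SERPINA10, SERPINA11 and SERPINA12 passed the test in none of the 5 comparisons. The widest of their differences with COH29 in HCC1937 was 0.27 on the log2 scale, the value of SERPINA4 (kallistatin, an inhibitor of tissue kallikrein). The same held for the thrombin inhibitors SERPINC1 (antithrombin) and SERPIND1 (heparin cofactor II), for SERPINF2, the main plasmin inhibitor, for SERPING1, the C1 inhibitor of complement, for SERPINI2 and for the clade B genes SERPINB11, SERPINB12 and SERPINB13. Together these are 15 members with no call, and 15 members were called in at least 1 comparison.

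The single members of clades C, D and G, and SERPINF2 of clade F, had no call. SERPINC1 read 5.57 and 5.17 in HCC1937 control, 5.46 and 5.30 with COH29, 4.85 and 5.32 in HCC1937+BRCA1 control, and 5.25 and 5.45 with COH29. SERPIND1 read 5.34 and 5.33, 5.65 and 5.42, 5.37 and 5.60, and 5.58 and 5.52 in the same order of groups. SERPING1 read 6.35 and 6.15, 6.55 and 6.25, 5.97 and 6.19, and 6.35 and 6.49. The arrays of SERPINC1 overlapped in all 4 comparisons of 2 groups. SERPINF2 read 6.63 and 6.64, 6.68 and 6.60, 6.57 and 6.56, and 6.41 and 6.47. SERPING1 was higher on both COH29 arrays of HCC1937+BRCA1 than on both of its controls, by 0.34 ± 0.13 (SE), short of the threshold in limma.

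**Figure D1:**
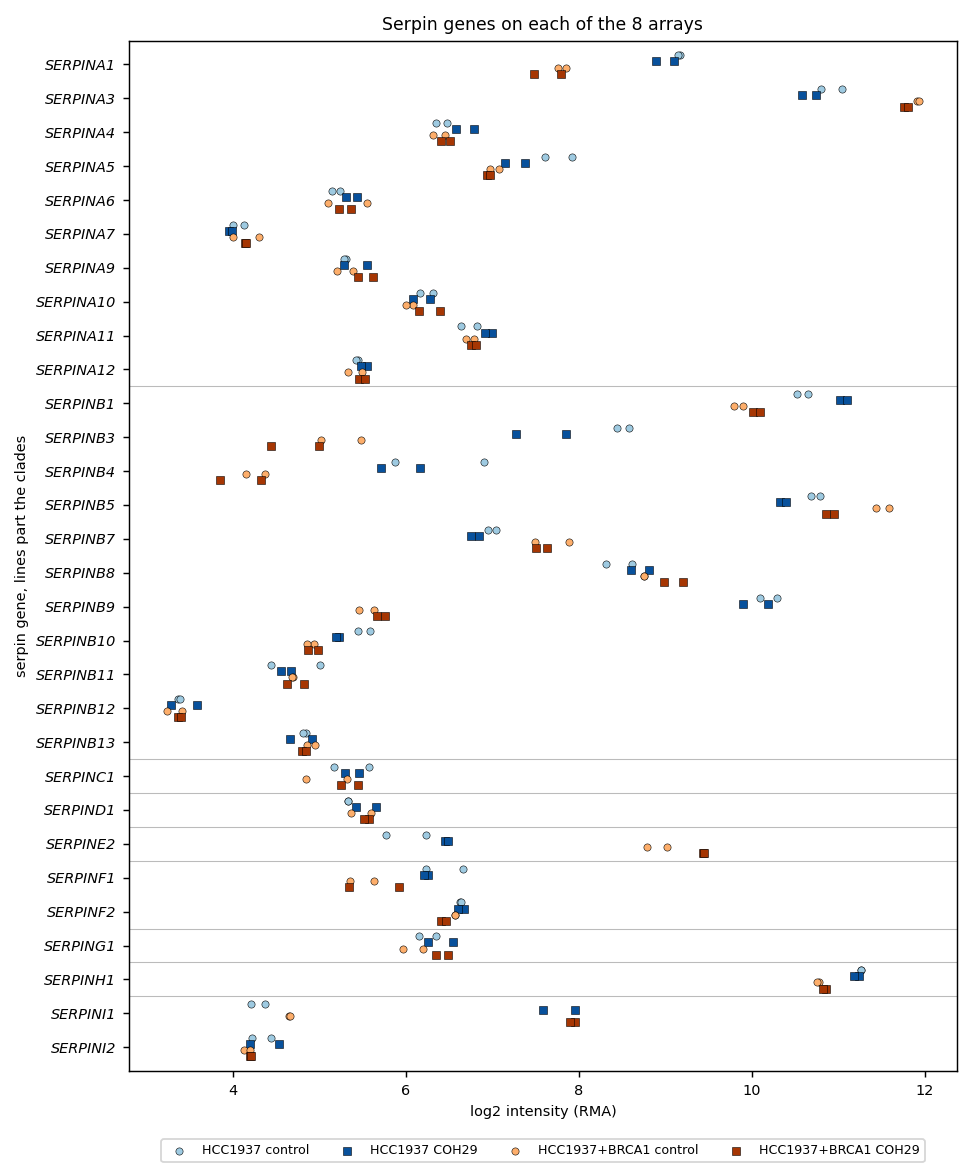
Each row is 1 serpin gene and each point 1 array, placed by its log2 intensity (RMA) on the horizontal axis; circles are control arrays and squares COH29 arrays, blue for HCC1937 and orange to brown for HCC1937+BRCA1. SERPINB9 (5.46 to 10.29) and SERPINE2 (5.77 to 9.45) part by line, and SERPINI1 (4.21 to 7.96) parts by drug.

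The comparison of the lines gave the most calls. Without drug, 14 of the 30 members (46.7%) differed between HCC1937+BRCA1 and HCC1937 at an adjusted p under 0.05 (limma, Benjamini-Hochberg over all genes), 5 of them higher and 9 lower with exogenous BRCA1. Over all genes the share called was 31.2%, with 16.4% higher and 14.8% lower. With COH29 on both sides, 13 members (43.3%) were called, 5 higher and 8 lower, against 31.6% of all genes. These comparisons share no arrays, though they share 1 estimate of the spread. In both of them SERPINA3, SERPINB5, SERPINB7 and SERPINE2 were higher in HCC1937+BRCA1 (4 genes), and SERPINA1, SERPINB1, SERPINB3, SERPINB4, SERPINB9, SERPINB10, SERPINF1 and SERPINH1 were lower (8 genes). A called difference of at least 2-fold was found for 5 members without drug and 7 with COH29, where all genes gave 5.02% and 4.94%. The median difference over the 30 members was -0.04 in each comparison, and over all genes it was -0.01 and -0.00. The clade B genes made up 7 of the 14 calls without drug, 2 higher and 5 lower among 11 members, and 8 of the 13 with COH29, 3 higher and 5 lower.

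**Figure D2:**
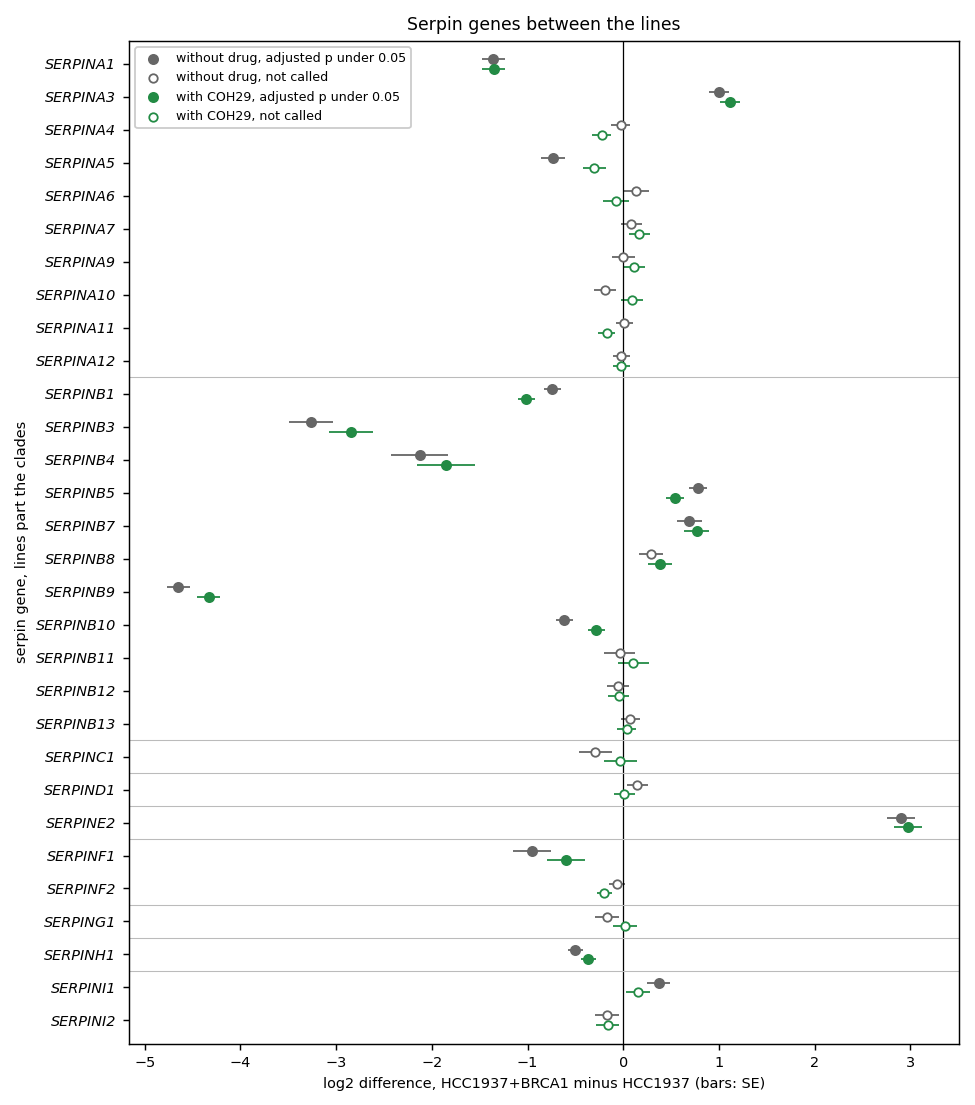
Each row is 1 serpin gene, and the horizontal axis is the log2 difference HCC1937+BRCA1 minus HCC1937, without drug in grey and with COH29 in green; bars are the SE of the limma model and filled points passed the adjusted p threshold. SERPINB9 lies farthest to the left at -4.65 and -4.33 and SERPINE2 farthest to the right at 2.90 and 2.97.

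SERPINB9 (PI-9) is the inhibitor of granzyme B, the protease by which killer lymphocytes start apoptosis, and cells that carry it are guarded against that protease. It read 10.29 and 10.10 on the HCC1937 control arrays, 9.90 and 10.19 with COH29, 5.46 and 5.63 on the HCC1937+BRCA1 control arrays, and 5.76 and 5.66 with COH29. All 4 HCC1937 arrays were thus more than 4 log2 units above all 4 HCC1937+BRCA1 arrays. The level in HCC1937+BRCA1 was 25.1-fold lower without drug (log2 difference -4.65 ± 0.12, SE, n = 2 per group, limma adjusted p = 3.3e-08). With COH29 it was 20.1-fold lower (-4.33 ± 0.12, adjusted p = 5.73e-08). In each comparison only 3 of the 18417 genes had a lower value. Of 13 measured genes of granule proteases, granzymes and their inhibitors, 0 were called higher and 1 lower in HCC1937+BRCA1 without drug, where all genes gave 16.4% and 14.8%.

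The 250 bases before the start site of SERPINB9, chr6:2903310-2903559 on the minus strand (RefSeq, GRCh38.p14, printed 5′ to 3′ along the gene), are shown because this gene had the widest gap between the lines. Capitals mark, from left to right, a CCAAT box that reads on the other strand, a pair of GC boxes (GGGCGG) that overlap by 1 base, and a TATA box (TATAAA) that begins 30 bases before the start.
SERPINB9: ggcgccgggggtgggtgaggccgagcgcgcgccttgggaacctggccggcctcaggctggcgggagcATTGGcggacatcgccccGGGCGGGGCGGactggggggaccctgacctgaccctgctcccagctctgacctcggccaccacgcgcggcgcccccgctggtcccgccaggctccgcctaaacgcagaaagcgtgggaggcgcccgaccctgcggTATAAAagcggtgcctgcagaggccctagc
On either strand, TATAAA stands in 11.1% of 27303 such windows, 1 per gene, at least 2 GGGCGG matches in 24.4% and CCAAT in 33.0%. The window has 74.4% G and C and 27 CpG sites. A match of letters is a description and no site of binding was measured.

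SERPINB1, an inhibitor of neutrophil elastase and cathepsin G, is the neighbour of SERPINB9 on chromosome 6. It read 10.66 and 10.53 in HCC1937 control, 11.03 and 11.11 with COH29, 9.90 and 9.80 in HCC1937+BRCA1 control, and 10.01 and 10.09 with COH29. The lines did not overlap. The difference was -0.74 ± 0.09 without drug (adjusted p = 0.000246) and -1.01 ± 0.09 with COH29 (adjusted p = 4.02e-05), a 1.67-fold and a 2.02-fold lower level. Other genes on either side were lower too in HCC1937+BRCA1 without drug: GMDS had -0.52, WRNIP1 -0.41 and NQO2 -0.78, all called, while MYLK4, BPHL and TUBB2A, also measured there, were not called. The value of SERPINB9 was thus far larger than that of any measured neighbour.

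The other 9 clade B members lie in a cluster on chromosome 18, and its genes did not move as a block. SERPINB3 and SERPINB4 are the squamous cell carcinoma antigens, inhibitors of lysosomal cysteine proteases and of chymotrypsin-like proteases respectively. SERPINB3 read 8.58 and 8.44 in HCC1937 control, 7.28 and 7.85 with COH29, 5.48 and 5.02 in HCC1937+BRCA1 control, and 4.44 and 5.00 with COH29. SERPINB4 read 6.90 and 5.88, 5.72 and 6.17, 4.37 and 4.16, and 4.32 and 3.86 in the same order. For both genes every HCC1937 array was above every HCC1937+BRCA1 array. SERPINB3 was 9.59-fold lower in HCC1937+BRCA1 without drug (-3.26 ± 0.23, adjusted p = 1.11e-05) and 7.19-fold lower with COH29 (-2.85 ± 0.23, adjusted p = 2.7e-05). SERPINB4 was 4.37-fold lower (-2.13 ± 0.30, adjusted p = 0.000633) and 3.61-fold lower (-1.85 ± 0.30, adjusted p = 0.0014). Without moderation of the variances the SERPINB4 call with COH29 ended (adjusted p = 0.0507).

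SERPINB3 and SERPINB4 are near-identical copies, so their probe sets may share signal and the pair may not be 2 separate measurements. Their likeness extends to the bases before their start sites, chr18:63661894-63662143 and chr18:63644257-63644506, both on the minus strand (RefSeq, GRCh38.p14, 5′ to 3′ along the gene). The windows are shown one under the other, with capitals at the bases that differ.
SERPINB3: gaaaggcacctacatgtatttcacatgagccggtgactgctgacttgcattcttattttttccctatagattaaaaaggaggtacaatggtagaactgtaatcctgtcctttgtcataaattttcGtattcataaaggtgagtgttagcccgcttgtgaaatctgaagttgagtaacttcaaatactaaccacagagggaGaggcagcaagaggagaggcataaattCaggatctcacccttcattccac
SERPINB4: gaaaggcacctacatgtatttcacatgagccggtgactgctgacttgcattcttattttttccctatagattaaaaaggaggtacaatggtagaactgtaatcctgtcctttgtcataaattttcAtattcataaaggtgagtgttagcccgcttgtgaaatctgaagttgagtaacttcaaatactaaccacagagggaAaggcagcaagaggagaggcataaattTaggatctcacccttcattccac
They differ at 3 of 250 bases (98.8% identical), which are G126A, G201A and C228T from SERPINB3 to SERPINB4, with positions counted from 1 at the 5′ end of the window. Neither window is rich in CpG, with 3 and 2 sites.

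SERPINB5 (maspin), a tumour suppressor candidate of breast epithelium that has lost protease inhibition, went the other way. It read 10.79 and 10.69 in HCC1937 control, 10.33 and 10.40 with COH29, 11.59 and 11.44 in HCC1937+BRCA1 control, and 10.95 and 10.86 with COH29. At each drug state both HCC1937+BRCA1 arrays were above both HCC1937 arrays, by 0.78 ± 0.09 without drug (adjusted p = 0.000219) and by 0.54 ± 0.09 with COH29 (adjusted p = 0.00183). SERPINB7 (megsin), known from skin and from mesangial cells of the kidney, was higher as well, by 0.69 ± 0.13 (adjusted p = 0.00299) and 0.77 ± 0.13 (adjusted p = 0.00166). Its arrays read 7.04 and 6.95, 6.76 and 6.85, 7.89 and 7.49, and 7.64 and 7.51 in the order used above, with no overlap of the lines.

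SERPINB8, an inhibitor of furin in the test tube, read 8.62 and 8.31, 8.61 and 8.81, 8.76 and 8.76, and 8.99 and 9.20. It was higher in HCC1937+BRCA1 with COH29, by 0.38 ± 0.13 (adjusted p = 0.0464), and had 0.29 ± 0.13 without drug (adjusted p = 0.12). The call with COH29 ended without moderation of the variances (adjusted p = 0.162) and in the fit on the compared groups alone (0.0521). That call ended without HCC1937 COH29 replicate 1 (adjusted p = 0.213) or replicate 2 (0.0504), without HCC1937+BRCA1 COH29 replicate 2 (0.241), and without either HCC1937+BRCA1 control array (0.0628). SERPINB10 (bomapin), known from blood-forming cells, read 5.58 and 5.45, 5.23 and 5.20, 4.93 and 4.86, and 4.99 and 4.88. It was lower in HCC1937+BRCA1, with -0.62 ± 0.09 without drug (adjusted p = 0.000696) and -0.28 ± 0.09 with COH29 (adjusted p = 0.037). The second call ended with arrays shifted to a common median (adjusted p = 0.0620) and with a trend and robust variances (0.113). It ended also without moderation (0.0530) and in the fit on the compared groups alone (0.0772). The second of these calls ended without any 1 of the HCC1937 COH29 arrays (adjusted p = 0.117 and 0.0893), the HCC1937+BRCA1 COH29 arrays (0.0565 and 0.177) or the HCC1937+BRCA1 control arrays (0.0506). SERPINB11, SERPINB12 and SERPINB13, which lie in the same cluster, had differences between -0.05 and 0.10 and no call. Of the genes around the cluster, BCL2 (0.11) and KDSR (0.22) on one side and CDH7 (0.19) on the other were not called without drug, while VPS4B (0.34), the cadherin gene CDH19 (4.51) and DSEL (1.38) were higher.

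**Figure D3:**
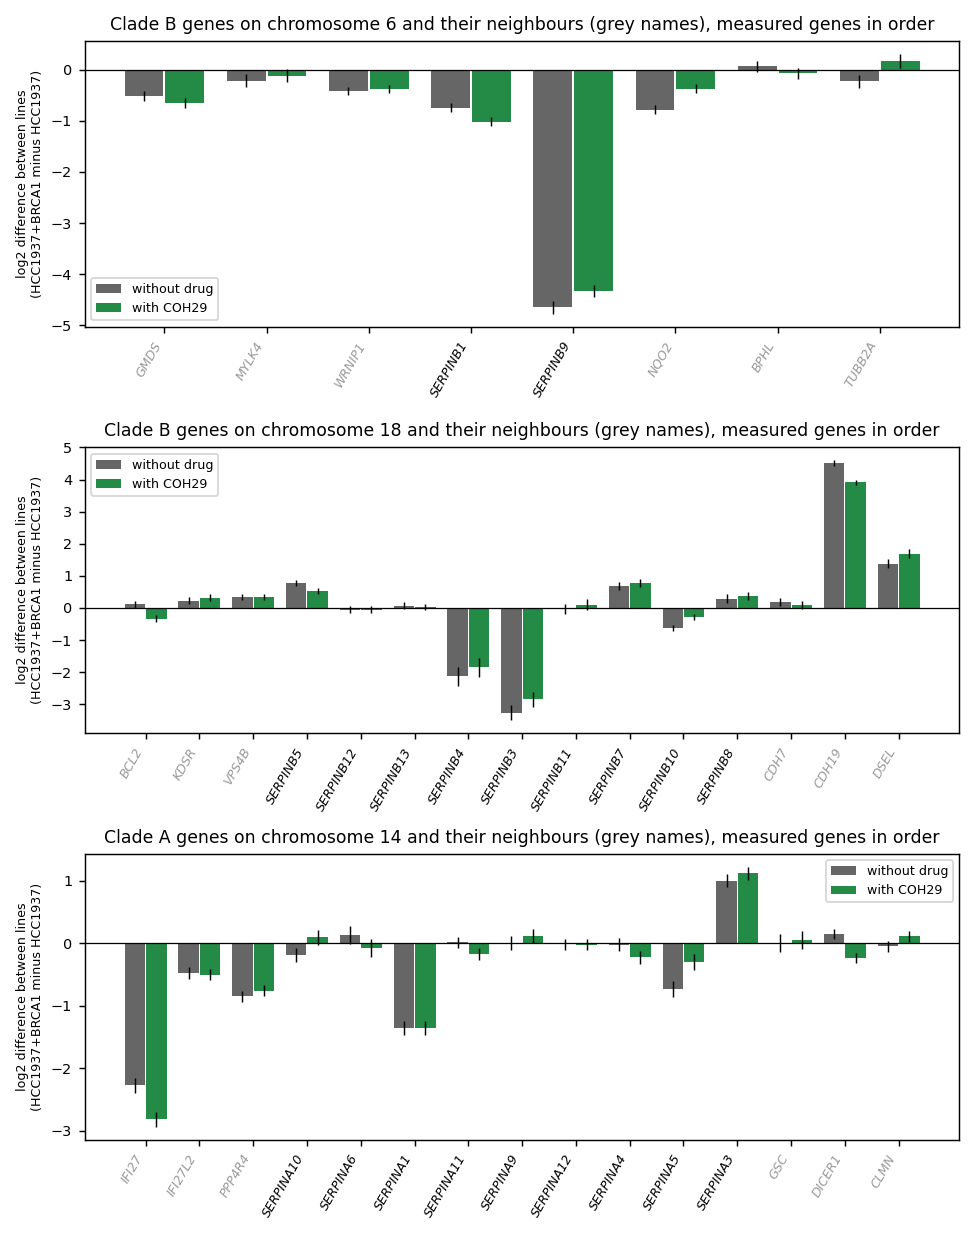
The panels show the serpin genes of chromosomes 6, 18 and 14 with their measured neighbours (grey names), in chromosome order along the horizontal axis; bars are the log2 difference HCC1937+BRCA1 minus HCC1937 without drug (grey) and with COH29 (green), with the SE. On chromosome 18 bars point up for SERPINB5 (0.78) and down for SERPINB3 (-3.26), and on chromosome 14 down for SERPINA1 (-1.36) and up for SERPINA3 (1.00).

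The clade A genes sit in a cluster on chromosome 14, apart from SERPINA7 on the X chromosome, and their called members also differed in direction. SERPINA1 encodes alpha-1-antitrypsin, the main plasma inhibitor of neutrophil elastase, and is an acute-phase gene. It read 9.17 and 9.15 in HCC1937 control, 8.89 and 9.10 with COH29, 7.85 and 7.76 in HCC1937+BRCA1 control, and 7.48 and 7.80 with COH29. The lines did not overlap, and the level in HCC1937+BRCA1 was 2.56-fold lower in each comparison (-1.36 ± 0.12, adjusted p = 3.82e-05 without drug and 4.02e-05 with COH29). SERPINA3, alpha-1-antichymotrypsin, an inhibitor of cathepsin G and likewise an acute-phase gene, was higher instead. It read 10.81 and 11.05, 10.58 and 10.75, 11.92 and 11.94, and 11.76 and 11.81 in the same order. That is 2.00-fold higher in HCC1937+BRCA1 without drug (1.00 ± 0.10, adjusted p = 0.000105) and 2.17-fold higher with COH29 (1.12 ± 0.10, adjusted p = 5.68e-05).

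SERPINA5, the protein C inhibitor, acts on activated protein C and on urokinase. It read 7.61 and 7.92 in HCC1937 control, 7.15 and 7.38 with COH29, 6.98 and 7.08 in HCC1937+BRCA1 control, and 6.94 and 6.98 with COH29. Without drug the HCC1937 arrays were the higher ones, and with COH29 they were closer to those of HCC1937+BRCA1. The difference was -0.73 ± 0.12 without drug (adjusted p = 0.00163) and -0.30 ± 0.12 with COH29 (adjusted p = 0.096).

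SERPINE2 (protease nexin 1), a secreted inhibitor of thrombin, urokinase and plasmin that binds to the cell surface and matrix, had the highest rise of the family between the lines. It read 6.24 and 5.77 in HCC1937 control, 6.45 and 6.49 with COH29, 9.02 and 8.79 in HCC1937+BRCA1 control, and 9.43 and 9.45 with COH29. Every HCC1937+BRCA1 array was at least 2 log2 units above every HCC1937 array. The level was 7.46-fold higher without drug (2.90 ± 0.15, adjusted p = 1.22e-06) and 7.85-fold higher with COH29 (2.97 ± 0.15, adjusted p = 1.3e-06), at ranks 40 and 31 among all genes. Of its measured neighbours, SCG2, AP1S3, MRPL44, FAM124B and DOCK10 were not called without drug, and CUL3 had -0.28.

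The 250 bases before the start of SERPINE2, chr2:224031479-224031728 on the minus strand (RefSeq, GRCh38.p14, 5′ to 3′ along the gene), are shown as those of the serpin with the largest rise between the lines. Capitals mark the CCAAT boxes on either strand, a stretch in which the hypoxia response core (ACGTG) reads on both strands, and a GC box.
SERPINE2: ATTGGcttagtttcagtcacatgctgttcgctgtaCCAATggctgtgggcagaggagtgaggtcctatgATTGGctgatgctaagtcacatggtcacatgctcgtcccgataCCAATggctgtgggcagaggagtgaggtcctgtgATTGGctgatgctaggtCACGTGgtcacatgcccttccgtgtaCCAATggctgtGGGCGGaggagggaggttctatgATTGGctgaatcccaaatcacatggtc
The window holds CCAAT 7 times, as 3 matches on the gene's strand and 4 on the other, and 0.022% of the 27303 windows hold as many. A longer stretch that holds the motif on both strands is repeated along the window. On the gene's strand the matches begin 215, 138 and 61 bases before the start. The 7 matches are thus largely copies of each other and do not count as separate sites. At least 2 ACGTG matches were found in 7.65% of windows and at least 1 GGGCGG in 42.3%. The search for CCAAT and for CAGCTG was added after these sequences had been read.

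Among the other members called between the lines, SERPINF1 read 6.67 and 6.23 in HCC1937 control, 6.26 and 6.21 with COH29, 5.35 and 5.63 in HCC1937+BRCA1 control, and 5.34 and 5.92 with COH29. It was lower in HCC1937+BRCA1, with -0.96 ± 0.20 without drug (adjusted p = 0.00536) and -0.60 ± 0.20 with COH29 (adjusted p = 0.0458). Without moderation the adjusted p was 0.0819 and 0.213. The call with COH29 also ended without either HCC1937 COH29 array (0.142 and 0.124) or HCC1937+BRCA1 COH29 replicate 1 (0.289), and with arrays shifted to one median (0.0519). SERPINH1 read 11.26 and 11.27, 11.24 and 11.18, 10.78 and 10.75, and 10.87 and 10.83. Its arrays lay close together within each group, and the difference was -0.50 ± 0.08 without drug (adjusted p = 0.00113) and -0.36 ± 0.08 with COH29 (adjusted p = 0.00648).

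Fewer serpins passed the test with COH29 than between the lines. In HCC1937, 7 of 30 members (23.3%) passed the test, 3 higher and 4 lower, against 22.7% of all genes, 10.2% higher and 12.5% lower. In HCC1937+BRCA1 the count was 3 (10%), 2 higher and 1 lower, against 33.6% of all genes, 13.6% higher and 20.1% lower. One of the calls in each line is SERPINI1, which was known before the family was chosen. SERPINI1 and SERPINE2 were higher and SERPINB5 was lower with the drug in both lines. SERPINB1 was higher and SERPINA5, SERPINB3 and SERPINB10 were lower by the test in HCC1937. The median change over the 30 members was -0.02 in HCC1937 and 0.05 in HCC1937+BRCA1, where all genes had 0.04 in each. In HCC1937 the 7 calls dropped to 2 with COH29 replicate 1 left out, to 2 with control replicate 2 left out and to 4 with control replicate 1 left out. With arrays shifted to one median, the count of 3 became 6, with 5 higher and 1 lower, and SERPINB1 (0.27) and SERPINB8 (0.41) were among the added calls.

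**Figure D4:**
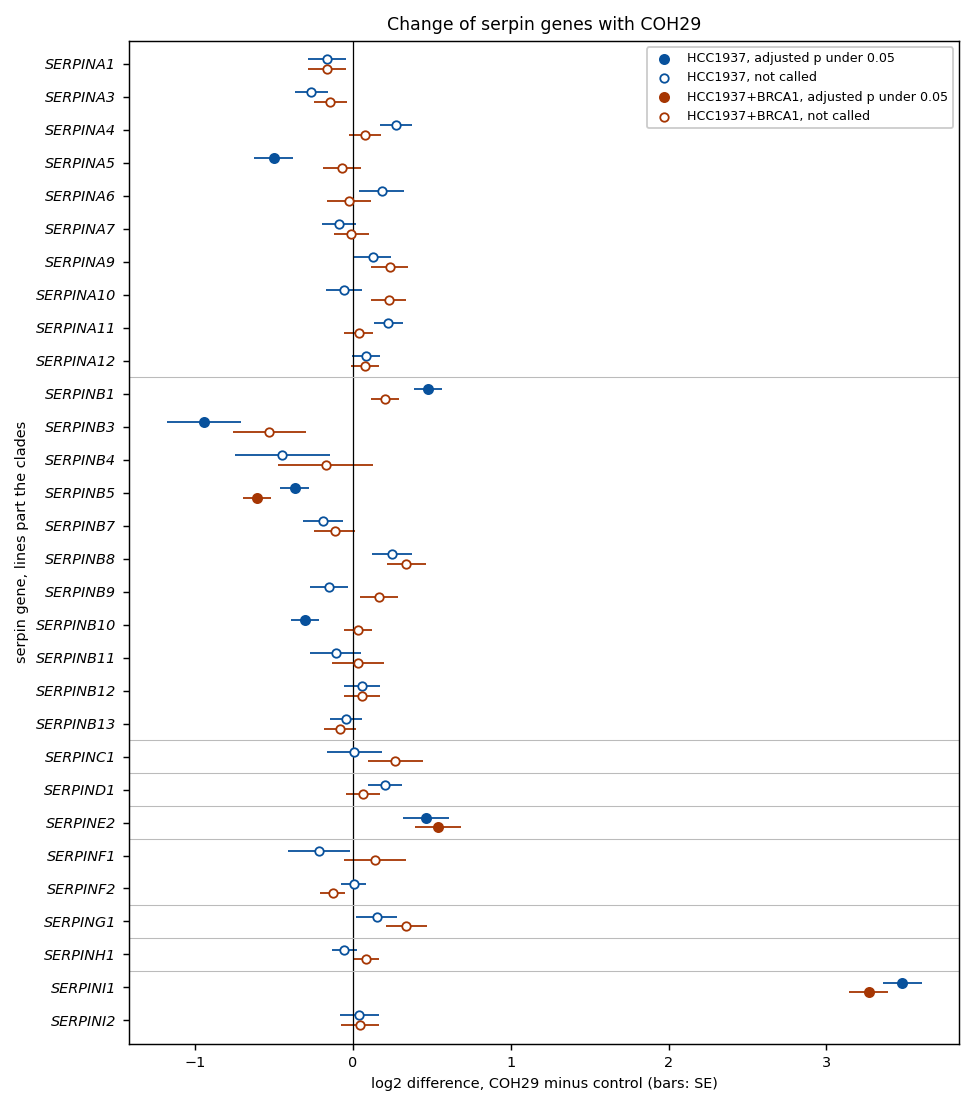
Each row is 1 serpin gene, and the horizontal axis is the log2 difference COH29 minus control in HCC1937 (blue) and in HCC1937+BRCA1 (brown); bars are the SE of the limma model and filled points passed the adjusted p threshold. SERPINI1 lies at 3.48 and 3.27, and the other points lie between -0.95 and 0.54.

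SERPINI1 encodes neuroserpin, a secreted inhibitor of tissue plasminogen activator that is best known from neurons. It read 4.37 and 4.21 on the HCC1937 control arrays, 7.59 and 7.96 with COH29, 4.66 and 4.67 on the HCC1937+BRCA1 control arrays, and 7.95 and 7.90 with COH29. Both lines thus went from a low signal to one near 8, with no overlap of treated and control arrays. The change was 3.48 ± 0.12 (11.2-fold) in HCC1937 and 3.27 ± 0.12 (9.63-fold) in HCC1937+BRCA1. It stood at rank 1 among all genes in HCC1937 and at rank 6 in HCC1937+BRCA1. Over the alternatives the change ran from 3.30 to 3.67 and from 3.13 to 3.33. The value in HCC1937 was 0.21 ± 0.17 above that in HCC1937+BRCA1, given like the changes themselves without a test. The control means lay at percentiles 4.51 and 7.24 of all genes, and RMA values carry no call of detection, so the folds are those of the array signal and may understate the change of the RNA. Over the 8 arrays SERPINI1 lay at percentile 23.5, so the alternative that leaves out genes below the 30th percentile does not hold it.

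Without drug SERPINI1 was higher in HCC1937+BRCA1 by 0.37 ± 0.12 (adjusted p = 0.0475), and with COH29 the difference was 0.15 ± 0.12 (adjusted p = 0.405). The first of these is at the edge of the threshold. It ended without any 1 of the control arrays (adjusted p from 0.0752 to 0.247) or of the HCC1937+BRCA1 COH29 arrays (0.0659). It ended also after cyclic loess (0.0792), with a trend and robust variances (0.0539) and without moderation (0.159).

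The genes beside SERPINI1 on chromosome 3 did not change to a like degree. SERPINI2, the other clade I gene, whose product is known from the pancreas, lies on the far side of WDR49 and PDCD10. It read 4.44 and 4.22, 4.20 and 4.54, 4.13 and 4.20, and 4.20 and 4.21 in the usual order, with a change of 0.04 ± 0.12 in each line and no call. PDCD10, whose start site lies 829 bases from that of SERPINI1 and which is read from the other strand, encodes a scaffold protein of cell junctions and kinase signalling. It read 9.06 and 9.12, 9.45 and 9.54, 9.39 and 9.24, and 9.73 and 9.51, and rose by 0.41 ± 0.10 (adjusted p = 0.0211) and 0.31 ± 0.10 (adjusted p = 0.0471). WDR49, with 0.04 and -0.14, and GOLIM4, with -0.02 and -0.09, were not called with the drug. MECOM, a transcription factor gene on the far side of GOLIM4, fell with COH29 in both lines, with -0.81 (adjusted p = 0.000687) and -1.23 (adjusted p = 3.78e-05).

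**Figure D5:**
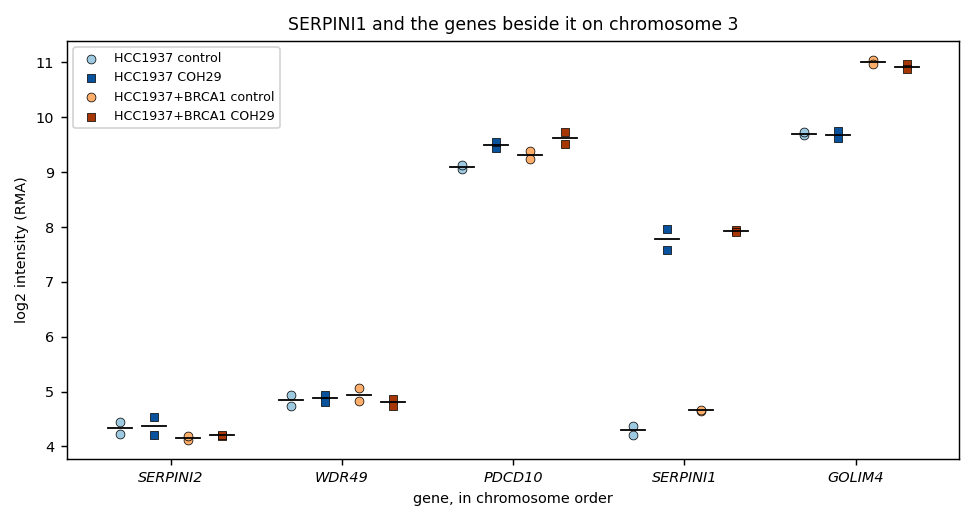
Points are single arrays of SERPINI1 and 4 genes beside it, in chromosome order, with log2 intensity on the vertical axis and black lines at the mean of each group of 2 arrays; circles are control and squares COH29. SERPINI1 goes from below 5 to above 7.5 in both lines, while the other genes shift by at most 0.41 with the drug.

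The 250 bases before the start of SERPINI1, chr3:167735471-167735720 on the plus strand (RefSeq, GRCh38.p14, 5′ to 3′), are shown as those of the serpin with the largest change under COH29. Capitals mark CAGCTG, a form of the E-box that reads the same on both strands.
SERPINI1: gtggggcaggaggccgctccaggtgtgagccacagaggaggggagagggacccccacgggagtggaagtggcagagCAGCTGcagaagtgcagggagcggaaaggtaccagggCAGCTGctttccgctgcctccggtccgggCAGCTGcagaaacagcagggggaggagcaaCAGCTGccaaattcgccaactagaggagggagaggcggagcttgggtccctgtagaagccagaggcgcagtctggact
CAGCTG occurs 4 times, beginning 174, 137, 108 and 78 bases before the start, and 0.011% of the 27303 windows hold as many. The motif was added to the search after this sequence had been read, so that share is a description and no test. The other 7 motifs searched on both strands had no match here. They were the TATA box, the GC box, the CCAAT box, the hypoxia response core, the AP-1 site (TGANTCA), the core bound by ATF4 with a C/EBP partner (TGATGNAA) and the heat shock element core (GAANNTTC). These letters are only absent from this window, and nothing on the factors follows from it.

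Of all members, 24 had a promoter window of 300 bases (250 before and 50 after the start) in the RefSeq table. ACGTG stood in 3 of the 24 (12.5%, SERPINE2, SERPINH1 and SERPINB8) and in 21.6% of all windows. TGANTCA stood in 5 (20.8%, against 7.76%) and the heat shock core in 4 (16.7%, against 6.87%), among them SERPINH1. CCAAT stood in 6 (25.0%, against 35.7%), CAGCTG in 5 (20.8%, against 17.7%) and TGATGNAA in 1 (4.17%, against 3.67%). GGGCGG was found in 6 (25.0%, against 44.6%), and the median number of CpG sites was 4, against 14 over all genes. Only SERPINB1, SERPINB9 and SERPINH1 had at least 20 CpG sites, which 41.2% of all windows have.

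The other serpins called with COH29 changed by less than 2-fold. SERPINE2 rose in both lines, with 0.46 ± 0.15 in HCC1937 (adjusted p = 0.0487) and 0.54 ± 0.15 in HCC1937+BRCA1 (adjusted p = 0.0196), and in each line both treated arrays were above both controls. Both calls were weak, and both ended without moderation of the variances (adjusted p = 0.191 in HCC1937 and 0.117 in HCC1937+BRCA1). The call in HCC1937 also ended after cyclic loess (0.0735) and in the fit on the compared groups alone (0.0807). The one in HCC1937 was lost without control replicate 2 of that line (0.23, adjusted p = 0.3004), either HCC1937 COH29 array (0.137 and 0.132), either HCC1937+BRCA1 COH29 array (0.0693) or either HCC1937+BRCA1 control array (0.0508). In HCC1937+BRCA1 it ended without either COH29 array (0.0693 and 0.0807) or control replicate 2 of that line (0.104).

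SERPINB5 fell in both lines, with -0.37 ± 0.09 in HCC1937 (adjusted p = 0.0192) and -0.61 ± 0.09 in HCC1937+BRCA1 (adjusted p = 0.000974), and treated and control arrays did not overlap in either. Without moderation of the variances the adjusted p in HCC1937 was 0.0532. The call in HCC1937 ended without COH29 replicate 1 (0.0952) or control replicate 1 (0.126) or 2 (0.0582) of that line. SERPINB1 rose by 0.47 ± 0.09 in HCC1937 (adjusted p = 0.00514), a call that ended without control replicate 2 of that line (0.0511). The value in HCC1937+BRCA1 was 0.20 ± 0.09 (adjusted p = 0.11).

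SERPINB3 fell in HCC1937 (-0.95 ± 0.23, adjusted p = 0.0186), with both treated arrays below both controls. Without moderation of the variances that call ended (adjusted p = 0.151). HCC1937+BRCA1 gave -0.53 ± 0.23 (adjusted p = 0.112). The near-identical SERPINB4 had -0.45 ± 0.30 and -0.17 ± 0.30, with overlapping arrays and no call. For SERPINB3 the adjusted p was 0.126 without HCC1937 COH29 replicate 1, 0.101 without control replicate 1 and 0.0659 without control replicate 2.

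SERPINA5 had -0.50 ± 0.12 in HCC1937 (adjusted p = 0.0173) and -0.07 ± 0.12 in HCC1937+BRCA1 (adjusted p = 0.679). Without moderation of the variances the adjusted p in HCC1937 was 0.101. Its call ended without HCC1937 COH29 replicate 1 (0.111) or control replicate 2 (0.131). SERPINB10 had -0.30 ± 0.09 in HCC1937 (adjusted p = 0.0389) and 0.03 ± 0.09 in HCC1937+BRCA1 (adjusted p = 0.789). The call in HCC1937 ended with arrays shifted to a common median (adjusted p = 0.0605) and with a trend and robust variances (0.107). It ended also without moderation (0.0634) and in the fit on the compared groups alone (0.0636). That call ended without any 1 of the HCC1937 arrays (adjusted p from 0.0720 to 0.219) or either HCC1937+BRCA1 control array (0.0532). SERPINB9, SERPINA1, SERPINA3, SERPINB7, SERPINF1 and SERPINH1, all of which differed between the lines, were not called with COH29 in either line.

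Whether COH29 acted on a serpin differently in the lines is asked by the difference of the 2 effects. In limma 0 of the 30 members passed it, where 0.956% of all genes did, and 2 had an unadjusted p under 0.05. These were SERPINA5, with -0.43 (95% interval -0.82 to -0.04, adjusted p = 0.331), and SERPINB10, with -0.33 (95% interval -0.62 to -0.05, adjusted p = 0.302). A call in HCC1937 alone is thus not shown to be particular to that line. The median SE of this difference was 0.145 over all genes, so a small difference would not have been detectable with 2 arrays per group.

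The proteases and partners that serpins act on were taken from lists, chosen like the family with earlier results of these data known. Over all genes the calls upward and downward were 10.2% and 12.5% for COH29 in HCC1937, 13.6% and 20.1% for COH29 in HCC1937+BRCA1, and 16.4% and 14.8% for HCC1937+BRCA1 against HCC1937 without drug. Of 16 genes of plasminogen activation, which SERPINE2, SERPINI1 and SERPINF2 restrain, COH29 raised 1 and lowered 1 in HCC1937 and raised 2 and lowered 2 in HCC1937+BRCA1, and 5 were higher and 2 lower in HCC1937+BRCA1 without drug. PLAU, the urokinase gene, read 10.11 and 10.16 in HCC1937 control, 9.60 and 9.63 with COH29, 8.60 and 8.48 in HCC1937+BRCA1 control, and 8.09 and 8.24 with COH29. It was 3.01-fold lower in HCC1937+BRCA1 without drug (-1.59 ± 0.09, adjusted p = 2.71e-06) and fell with COH29, with -0.52 (adjusted p = 0.0035) and -0.38 (adjusted p = 0.0104). PLAT, the gene of tissue plasminogen activator and target of neuroserpin, read 9.39 and 9.35, 9.04 and 9.19, 7.92 and 7.69, and 7.50 and 7.56. It was 2.95-fold lower in HCC1937+BRCA1 (-1.56 ± 0.10, adjusted p = 5.97e-06), and its change with COH29 was -0.25 (adjusted p = 0.108) and -0.28 (adjusted p = 0.0635). PLAU and PLAT were the 2 genes of this list called lower in HCC1937+BRCA1 without drug, against 5 higher. A link to SERPINE2, which was higher in that line, was not tested. PLAUR, the urokinase receptor gene, rose with COH29 by 0.54 (adjusted p = 0.00343) and 0.83 (adjusted p = 0.000195).

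Of 18 genes of thrombin and coagulation, 5 were higher and 0 lower in HCC1937+BRCA1 without drug, where all genes gave 16.4% and 14.8%. COH29 gave 2 higher and 1 lower in HCC1937 and 3 and 3 in HCC1937+BRCA1. F2R, the thrombin receptor gene, was higher in HCC1937+BRCA1 by 1.30 ± 0.14 (adjusted p = 0.000133) and fell with COH29 in both lines, with -1.04 (adjusted p = 0.000961) and -1.25 (adjusted p = 0.000195). Of 27 trypsin-like and kallikrein protease genes, 1 was higher and 8 were lower in HCC1937+BRCA1. Of these KLK8 had -1.97 and TMPRSS4 -1.97. Cysteine cathepsins and cystatins, whose proteases several clade B serpins inhibit, had 7 of 17 members higher and 5 lower. The protease gene CTSV was higher by 1.24 and rose with COH29 by 0.78 and 0.44, while the inhibitor gene CSTA was lower, with -2.23.

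In the next lists, too, the counts stand against all genes, of which 22.7% were called with COH29 in HCC1937, 33.6% in HCC1937+BRCA1 and 31.2% between the lines without drug. Squamous differentiation genes, made in epithelia together with clade B serpins such as SERPINB3, had 2 of 18 members higher and 10 lower in HCC1937+BRCA1 without drug, with a median of -0.55 against -0.01 over all genes. Among them were SPRR1B (-1.72) and the keratin genes KRT13 (-1.70) and KRT4 (-1.28). Of 20 collagens and their processing enzymes, the partners of SERPINH1, COH29 raised 4 and lowered 1 in HCC1937, and raised 8 and lowered 0 in HCC1937+BRCA1. P4HA1, a prolyl hydroxylase gene, rose by 1.39 and 1.36 and PLOD2, a lysyl hydroxylase gene, by 0.44 and 1.04, while SERPINH1 itself had -0.05 and 0.08. Of 15 heat shock genes, 1 was higher and 4 were lower with COH29 in HCC1937, and 3 were higher and 3 lower in HCC1937+BRCA1. The 21 hypoxia and TGF beta genes gave 13 calls upward and 3 downward under COH29 in HCC1937, with a median of 0.55 against 0.04 over all genes, and 12 upward and 3 downward in HCC1937+BRCA1, with a median of 0.51. The stress gene NDRG1 rose by 2.80 and 2.12 and the mitochondrial death factor gene BNIP3 by 2.21 and 1.74.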

How the data were processed

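The authors deposited log2 intensities of 33297 probe sets on each of the 8 arrays, made with RMA and Partek per the submitters' processing notes, with no version. No source used here gives a genome build. Probe sets with 1 gene in the platform annotation (19460) were kept, those with several genes (1754) or none (12083) were not, and of several per gene the one with the highest mean was used, which left 18417 genes. No filter on low values was set. Group means over the 8 arrays were estimated with limma 3.58.1 (R 4.3.3; lmFit, contrasts, eBayes; 4 residual degrees of freedom), with Benjamini-Hochberg adjustment over all genes and a threshold of 0.05. Standard errors, folds and 95% intervals are those of this fit, and its precision is limited by the few arrays. The fit was tested on simulated data. Promoter windows are the first listed per gene in RefSeq (GRCh38.p14). Array values are given for members called in any comparison, for SERPINI2 and for the members with the highest mean in each clade; from the other lists at most 4 genes with the smallest p under COH29 are named, plus PDCD10, PLAU, PLAT and PLAUR. Members, lists and motifs were chosen with earlier results of these data known. Python 3.11.15 with pandas 2.3.3 made the tables, and matplotlib 3.10.9 drew the plots. Alternatives were a filter on low values, other scalings, other moderation, a replicate block, the mean of probe sets, fits on the compared groups alone, and fits without 1 array each.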

Additional observations from a re-analysis of the deposited data

How the results depend on the processing

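Of 37 pairs of a serpin gene and a comparison that passed the test, 24 passed it in every setting run, and no called change turned its direction. Both counts include the COH29 changes of SERPINI1 in each line, which were known before the family was chosen. The 7 calls with COH29 in HCC1937 became 4 after genes below the 30th percentile were left out (11 members tested) and 2 without moderation of the variances. Without control replicate 2 of HCC1937, all of the 7 except SERPINI1 ended. The 3 calls in HCC1937+BRCA1 became 6 with arrays shifted to one median, 6 after cyclic loess and 5 with a trend and robust variances, and were 2 to 3 when 1 array was left out. The 14 calls between the lines without drug became 9 under the filter, by its construction, since fewer members were tested, and were 13 to 14 when 1 array was left out; with COH29 they were 10 to 13 when 1 array was left out. The difference of effects had 0 calls in every setting. The calls with COH29 in HCC1937 also fell under the filter by its construction, since SERPINI1, SERPINB3 and SERPINB10 were among the genes left out. Where no construction is named, the cause was not tested. The replicate numbers of the titles did not pair the arrays (the deviations of same-numbered arrays correlated with r = 0.0367 in HCC1937 and 0.260 in HCC1937+BRCA1 between control and COH29, and -0.105 between the control groups, -0.0857 between the COH29 groups). With the replicate number as a block the counts were 7, 3, 0, 13 and 11 for the drug in each line, the difference of effects and the lines without and with drug; the block ended the call of SERPINI1 without drug (adjusted p = 0.0668) and those of SERPINB8 (0.0667) and SERPINF1 (0.0596) with COH29. With the numbers crossed between the lines, an alternative chosen after seeing the data, they were 7, 4, 0, 14 and 13. With 2 arrays per group the median SE of a difference was 0.103 over all genes, and a change has to be several times its SE to be called.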
